A study of Mus musculus with 12 samples.

Results

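The B7 family checkpoint ligands are cell-surface proteins through which antigen-presenting cells, other myeloid cells and tumour cells speak to T cells. The set holds 7 genes listed by name, with no threshold on measured values: Cd276, Cd274, Pdcd1lg2, Cd80, Cd86, Icosl and Vsir. They belong to the 22195 genes to which transcripts could be assigned, and all 7 were among the 13478 genes that passed the filter on low counts. Their RNA was measured in tumours that grew from YUMM2.1, a mouse melanoma cell line, placed under the skin of C57BL/6J mice with an intact immune system. The 12 libraries come from 4 groups of 3. One group received isotype control IgG (called control below), 1 anti-B7-H3 and 1 anti-PD1 alone, and 1 the 2 antibodies together (the combination), with treatment begun at a tumour volume of 20 to 50 mm3. All animals thus received an antibody and carried the same tumour line, and the labels give no age, sex, dose or day of collection. Each library is RNA of a whole tumour, in which fewer cells of a type and less RNA per cell cannot be told apart. Whether every library is a mouse of its own is not stated in the labels, so p-values compare libraries.

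T cells need a second signal beside antigen, and B7 family ligands carry it. CD80 and CD86 engage the activating receptor CD28 and the inhibitory receptor CTLA4, and ICOS ligand (Icosl) engages ICOS on activated T cells. PD-L1 (Cd274) and PD-L2 (Pdcd1lg2) engage PD1 and restrain T cells, and interferon gamma is a well-known inducer of PD-L1. VISTA (Vsir) is an inhibitory molecule of myeloid cells and T cells, while B7-H3 (Cd276) is found on many tumour cells and stromal cells and its receptor is less settled. Anti-B7-H3 and anti-PD1 bind proteins, so the RNA of Cd276 or of Pdcd1 is not a check of whether the antibodies worked.

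On the GRCm38 genome Cd276 lies at chr9:58524298-58555437 on the minus strand. Cd274 (chr19:29367455-29388095) and Pdcd1lg2 (chr19:29410919-29471161) are neighbours on the plus strand, 22824 bases apart. Cd80 (chr16:38455561-38496335, plus strand) and Cd86 (chr16:36603869-36666081, minus strand) share a chromosome. Icosl (chr10:78069302-78083913) and Vsir (chr10:60346851-60372684) are on the plus strand of chromosome 10, and Vsir sits inside the span of Cdh23. Cd274, Pdcd1lg2 and Vsir, whose RNA moved together, and Cd276, which took a course of its own, are shown here by the 250 bases before their RefSeq start (GRCm38.p6, 5′ to 3′ on the strand of the gene). Capitals mark GC boxes, the letters GGGCGG on either strand. The windows are chr9:58555034-58555283 for Cd276, chr19:29367188-29367437 for Cd274, chr19:29410669-29410918 for Pdcd1lg2 and chr10:60346601-60346850 for Vsir. The Cd276 window lies inside the gene span given above, whose 5′ end is further upstream than the RefSeq start.
Cd276: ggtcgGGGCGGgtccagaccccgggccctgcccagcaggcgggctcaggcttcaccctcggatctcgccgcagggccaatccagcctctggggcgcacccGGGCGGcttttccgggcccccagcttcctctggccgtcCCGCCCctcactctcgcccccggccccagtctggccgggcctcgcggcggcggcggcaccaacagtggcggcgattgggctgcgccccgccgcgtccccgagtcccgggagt
Cd274: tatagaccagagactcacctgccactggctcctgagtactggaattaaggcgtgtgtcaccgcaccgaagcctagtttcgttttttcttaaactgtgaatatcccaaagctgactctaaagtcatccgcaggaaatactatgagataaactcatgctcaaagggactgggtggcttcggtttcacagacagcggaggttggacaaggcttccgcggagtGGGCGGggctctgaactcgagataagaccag
Pdcd1lg2: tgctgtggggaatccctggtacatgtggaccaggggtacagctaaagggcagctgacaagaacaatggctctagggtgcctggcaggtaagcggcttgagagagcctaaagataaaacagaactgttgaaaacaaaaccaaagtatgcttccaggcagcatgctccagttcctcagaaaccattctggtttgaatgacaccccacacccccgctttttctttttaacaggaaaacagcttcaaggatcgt
Vsir: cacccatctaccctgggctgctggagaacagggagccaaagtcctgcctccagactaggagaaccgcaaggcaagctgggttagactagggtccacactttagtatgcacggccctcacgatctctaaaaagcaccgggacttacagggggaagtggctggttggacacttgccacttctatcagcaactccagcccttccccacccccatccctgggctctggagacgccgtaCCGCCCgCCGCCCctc

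The Cd276 window was the richest in G and C, at 77.6% with 29 CpG pairs, and the Pdcd1lg2 window was the poorest, at 48.4% with 3. Cd274 stood at 50.4% with 11 CpG pairs and Vsir at 60.4% with 9, beside a median G and C content of 52.4% over 32851 promoters of the same length. Icosl stood at 68.8% and Cd80 at 52.8%, and the window of Cd86 was not analysed here. The Cd80 window also lies inside the gene span given above, and the Icosl window reaches into that of Icosl. Cd276 held 3 GC boxes, Vsir 2, and Cd274 and Icosl 1 each, while 32.7% of all promoters held at least 1. The interferon gamma-activated site TTCNNNGAA (in 7.02% of promoters), the interferon-stimulated element (GAAA and GAAA with 2 free bases between, 2.98%), the kappaB site (GGG, 2 free bases, TTTCC, 1.41%) and the TATA box TATAAA (12.4%) were searched on both strands and were not found in these 6 windows. That says only that these letters are not in these 250 bases.

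Reads assigned to transcripts totalled 15585622 to 21298142 per control library, 3593110 to 3937727 per anti-B7-H3 library, 8099713 to 10527704 per anti-PD1 library and 4409772 to 5014931 per combination library. A set of 10 predicted genes of repeated sequence took 89.0% to 92.3% of the reads in control, 67.7% to 73.4% after anti-PD1, 29.8% to 33.5% after the combination and 0.0937% to 0.219% in anti-B7-H3 libraries, which left 1633917 to 1712720 other reads in control against 3570363 to 3918189 in anti-B7-H3 libraries. Receptor genes of smell and taste (chemoreceptor genes) held 7.41 ± 0.518 (SD, n = 3) reads per kilobase of coding sequence in control, 5.30 ± 0.217 after anti-PD1, 0.710 ± 0.0664 after the combination and 0.0927 ± 0.00736 in anti-B7-H3 libraries. Their rate times a gene's coding length is called the expected background below. These library features and the antibody groups cannot be told apart, and the ligand comparisons with control and those of anti-B7-H3 or the combination with anti-PD1 all move with them. Whether genomic DNA gave part of the reads in control and anti-PD1 libraries was not tested. Comparisons among the 3 treated groups rest on more ligand reads (a mean of 1281 per anti-B7-H3, 302.2 per anti-PD1 and 656.0 per combination library) than those against control (90.0).

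B7-H3, the target of one of the antibodies, had a transcript pattern unlike that of the other members. Cd276 had 46, 18 and 22 reads in the control libraries, 190, 182 and 197 after anti-B7-H3, 186, 146 and 122 after anti-PD1 and 220, 213 and 224 in combination libraries. Expected background over the 3 libraries of a group was 21.1 of the 86 reads in control and 15.1 of 454 after anti-PD1. Scaled to CPM (reads per 1000000 of the library size after TMM factors), Cd276 was lowest in control, whose first library reached the lower edge of the anti-B7-H3 libraries without overlapping them, and highest after anti-PD1 and combination, whose libraries overlapped. Its means were 9.86 ± 3.80 CPM in control, 14.98 ± 0.722 after anti-B7-H3, 18.8 ± 3.01 after anti-PD1 and 19.9 ± 1.38 after the combination (SD, n = 3 each).

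Cd276 rose after anti-PD1 against control, with a log2 fold change of 0.89 ± 0.176 (SE; edgeR, adjusted p = 3.57e-05). It stood 0.96 ± 0.170 above control after the combination (adjusted p = 1.97e-06). After anti-B7-H3 it was higher than in control by 0.56 ± 0.177 (adjusted p = 0.00492), a call lost without control replicate 2 (0.36, adjusted p = 0.0999), without replicate 3 (0.41, adjusted p = 0.0766) and with background subtracted (0.14, adjusted p = 0.633). Among treated groups Cd276 was the member that stood higher after the combination than after anti-B7-H3 (0.41 ± 0.104, adjusted p = 0.0011), and with an effective-length offset this was 0.27 (adjusted p = 0.465). Its value after anti-B7-H3 against anti-PD1 was -0.33 ± 0.112 (adjusted p = 0.00771), a call lost in 5 of the alternatives, among them those without anti-B7-H3 replicate 1 or anti-PD1 replicate 1 and the effective-length offset (0.04, adjusted p = 0.911). Between combination and anti-PD1 the difference was 0.07, with an approximate 95% interval from -0.14 to 0.29.

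**Figure D1:**
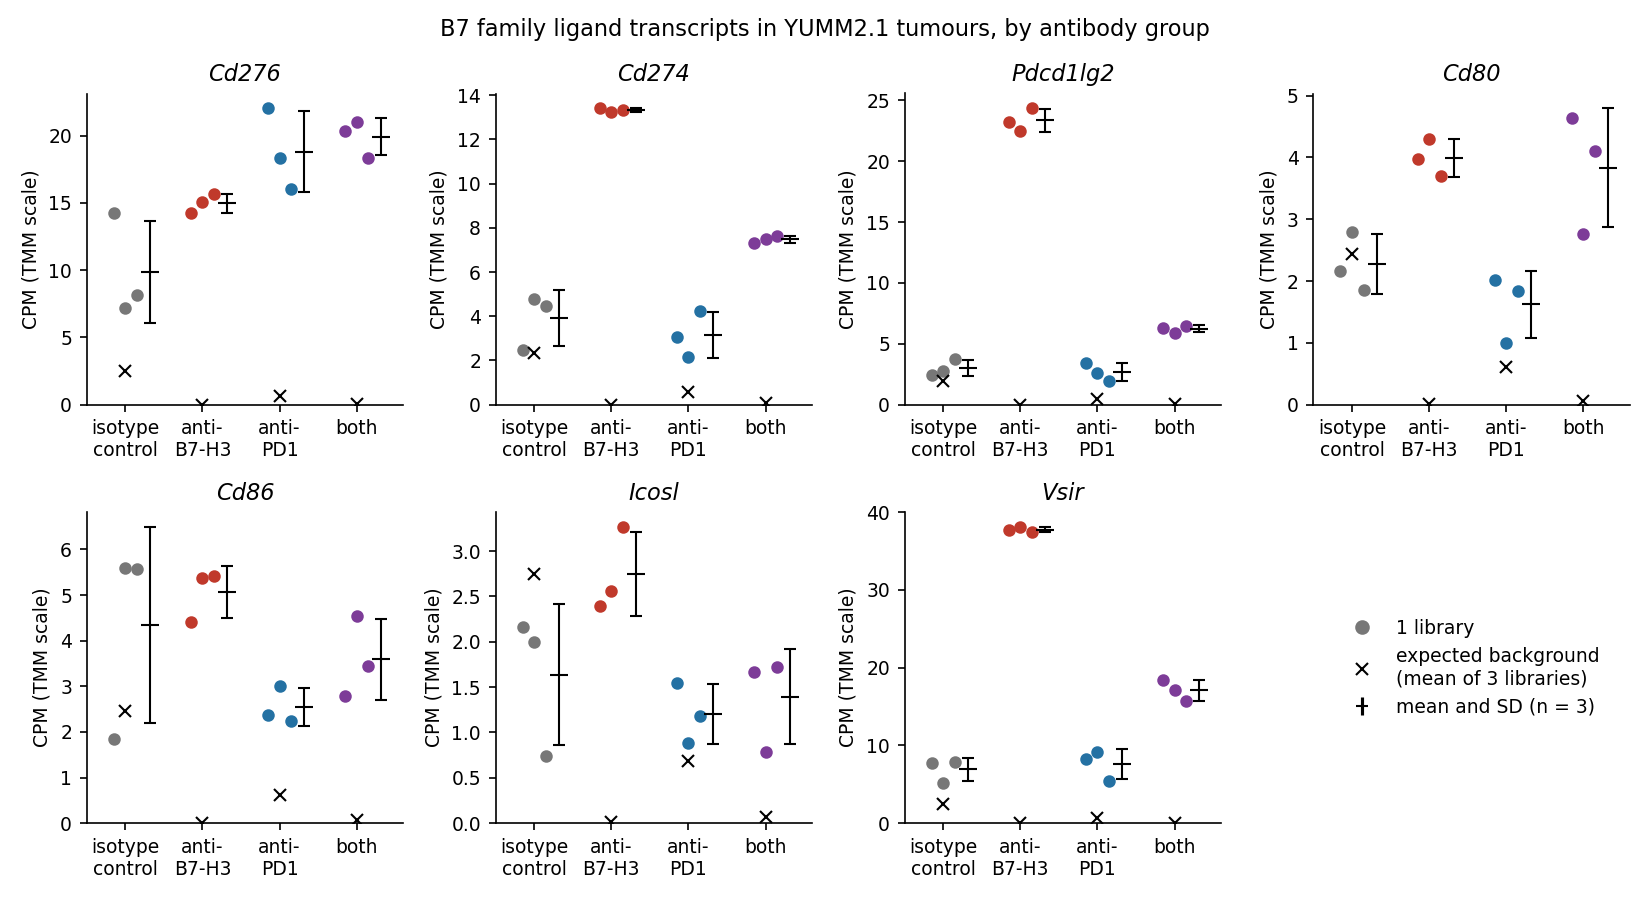
Level of each ligand in CPM on the TMM scale (vertical axes, each from 0) in the 4 antibody groups. Points are libraries, the bar beside them is the mean with its SD (n = 3), and crosses are the expected background. Cd274, Pdcd1lg2 and Vsir are highest in the 3 anti-B7-H3 libraries and intermediate after the combination, whereas Cd276 is highest after anti-PD1 and combination, and Cd80 and Icosl lie at or under the background cross in control.

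The PD1 ligand genes were highest in anti-B7-H3 tumours. Cd274, which encodes PD-L1, had 8, 12 and 12 reads in control, 179, 160 and 167 after anti-B7-H3, 26, 17 and 32 after anti-PD1 and 79, 76 and 93 in combination libraries. All 3 anti-B7-H3 libraries lay above all combination libraries, which lay above all others, while control and anti-PD1 overlapped. Mean levels were 3.91 ± 1.26 CPM in control (32 reads in all, 19.4 of them expected from background), 13.3 ± 0.0915 after anti-B7-H3, 3.14 ± 1.04 after anti-PD1 and 7.48 ± 0.158 after the combination. Cd274 rose after anti-B7-H3 by 2.08 ± 0.172 against anti-PD1 (adjusted p = 1.45e-17) and by 1.80 ± 0.232 against control (adjusted p = 2.86e-10). The combination stood 1.26 ± 0.192 above anti-PD1 (adjusted p = 8.32e-08). It stood below anti-B7-H3, with a log2 fold change of -0.83 ± 0.133 (adjusted p = 3.43e-07).

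Pdcd1lg2, which encodes PD-L2, had the largest fold difference of the members between anti-B7-H3 and anti-PD1. It had 8, 7 and 10 reads in control, 310, 272 and 305 after anti-B7-H3, 29, 21 and 15 after anti-PD1 and 68, 60 and 79 in combination libraries. The groups stood in the order of Cd274, again with control and anti-PD1 overlapping, and 16.5 of the 25 control reads were expected from background. Its mean was 23.4 ± 0.926 CPM after anti-B7-H3 against 6.24 ± 0.285 after the combination and 2.67 ± 0.733 after anti-PD1. Pdcd1lg2 rose by 3.10 ± 0.152 after anti-B7-H3 against anti-PD1 (adjusted p = 5.68e-29). The combination stood at -1.90 ± 0.117 relative to anti-B7-H3 (adjusted p = 4.76e-23) and 1.20 ± 0.196 above anti-PD1 (adjusted p = 3.89e-07).

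Within a library the ratio of Pdcd1lg2 to Cd274 reads does not depend on library scaling. It was 1.73, 1.70 and 1.83 in the anti-B7-H3 libraries and 0.863, 0.789 and 0.849 in the combination libraries. The 2 groups did not overlap. The genes differ in length, so the ratio compares groups and does not say which transcript was the more numerous within a group. Anti-PD1 libraries, with ratios of 1.12, 1.22 and 0.469 from few reads, spanned the combination values. With 3 libraries against 3 an exact two-sided permutation test cannot go below p = 0.1, and none is given for these ratios.

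VISTA had the most reads of the members in anti-B7-H3 tumours. Vsir had 25, 13 and 21 reads in control, 504, 461 and 469 after anti-B7-H3, 70, 73 and 41 after anti-PD1 and 198, 173 and 192 in combination libraries. Anti-B7-H3 libraries were highest, combination libraries next, and control and anti-PD1 libraries overlapped at the bottom. Its means were 37.7 ± 0.348 CPM after anti-B7-H3, 17.1 ± 1.30 after the combination, 7.62 ± 1.97 after anti-PD1 and 6.91 ± 1.48 in control, where 20.7 of 59 reads were expected from background. Vsir rose by 2.30 ± 0.112 after anti-B7-H3 against anti-PD1 (adjusted p = 4.12e-29) and by 2.43 ± 0.160 against control (adjusted p = 3.44e-22). The combination stood 1.15 ± 0.129 above anti-PD1 (adjusted p = 7.95e-12) and at -1.15 ± 0.0890 relative to anti-B7-H3 (adjusted p = 3.48e-18). Against control the combination was higher by 1.28 ± 0.184 (adjusted p = 1.16e-08), or 0.74 with an effective-length offset (adjusted p = 0.0791).

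The ligands of CD28, CTLA4 and ICOS were scarcer. Cd80 had 7, 7 and 5 reads in control, where background alone would give 20.5 in all, then 53, 52 and 46 after anti-B7-H3, 17, 8 and 14 after anti-PD1 and 50, 28 and 50 in combination libraries. Anti-B7-H3 and combination libraries overlapped and both lay above the anti-PD1 libraries. Of the 39 Cd80 reads after anti-PD1, 14.7 were expected from background. Cd80 rose by 1.28 ± 0.268 after anti-B7-H3 (adjusted p = 2.81e-05) and by 1.24 ± 0.274 after the combination (adjusted p = 0.000117), each against anti-PD1. Between combination and anti-B7-H3 its difference was -0.04, with an approximate 95% interval from -0.46 to 0.37. Its value after anti-B7-H3 against control (0.81 ± 0.345, adjusted p = 0.0343) passed the threshold from a control level at background, and was not called in 5 alternatives, among them those without control replicate 1 or replicate 3. After the combination Cd80 stood at 0.77 against control (adjusted p = 0.0541), and 8 of 23 alternatives called it higher.

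Cd86 had 6, 14 and 15 reads in control, 59, 65 and 68 after anti-B7-H3, 20, 24 and 17 after anti-PD1 and 30, 46 and 42 in combination libraries. On the CPM scale its control libraries spread over the range of the other groups, and anti-B7-H3 libraries lay above anti-PD1 libraries. Background was expected to give 14.8 of the 61 reads after anti-PD1. Cd86 was higher after anti-B7-H3 than after anti-PD1 by 0.99 ± 0.236 (adjusted p = 0.000213). The combination stood at -0.50 ± 0.206 relative to anti-B7-H3 (adjusted p = 0.0455), a call lost in 11 of the alternatives, including each that left out 1 anti-B7-H3 library.

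Icosl was the scarcest member, with 7, 5 and 2 reads in control (background alone would give 23.0), 32, 31 and 41 after anti-B7-H3, 13, 7 and 9 after anti-PD1 and 18, 8 and 21 in combination libraries. Anti-B7-H3 libraries lay above those of the other groups, which overlapped. Of the 29 reads after anti-PD1, 16.5 were expected from background. Icosl was higher after anti-B7-H3 than after anti-PD1 by 1.17 ± 0.339 (adjusted p = 0.00206), from that level near background. In combination it stood at -0.95 ± 0.308 relative to anti-B7-H3 (adjusted p = 0.00989), a call lost in 4 alternatives: without combination replicate 2 (-0.67, adjusted p = 0.105), without anti-B7-H3 replicate 3 (-0.79), with an effective-length offset and with background subtracted. No difference of Icosl from control passed the test, with approximate 95% intervals from -0.12 to 1.55 for anti-B7-H3, -1.44 to 0.53 for anti-PD1 and -1.16 to 0.70 for the combination.

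Over the set, anti-B7-H3 against anti-PD1 gave 6 members higher and 1 lower of 7, beside 62.0% of all tested genes called in either direction (30.4% higher). The median log2 fold change of the members was 1.28 and that of all tested genes -0.01. Combination against anti-PD1 gave 4 higher and 0 lower, beside 46.5% of all genes called, with a median of 1.15 for members and 0.00 for all genes. Combination against anti-B7-H3 gave 1 higher and 5 lower, beside 39.0% called (19.8% higher and 19.1% lower), with medians of -0.83 and 0.01. The comparisons share groups of libraries and are not independent of each other.

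Against control, anti-B7-H3 gave 5 members higher and 0 lower, beside 64.1% of all genes called (30.8% higher and 33.3% lower). The combination gave 4 higher and 0 lower, beside 57.3% called. Anti-PD1 gave 1 higher, Cd276, and 0 lower, beside 38.3% called, and the other 6 members lay between -0.71 and 0.13. With background subtracted, or with reads outside the repeated-sequence genes as library size, 2 members passed after anti-PD1 against control. The second of these scalings, chosen after seeing the data, moved the median of all genes against control by 1.0 after anti-B7-H3, 0.77 after anti-PD1 and 1.03 after the combination, and on it Cd274, Pdcd1lg2, Cd80, Cd86 and Icosl turned from a negative to a positive value after anti-PD1 against control.

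**Figure D2:**
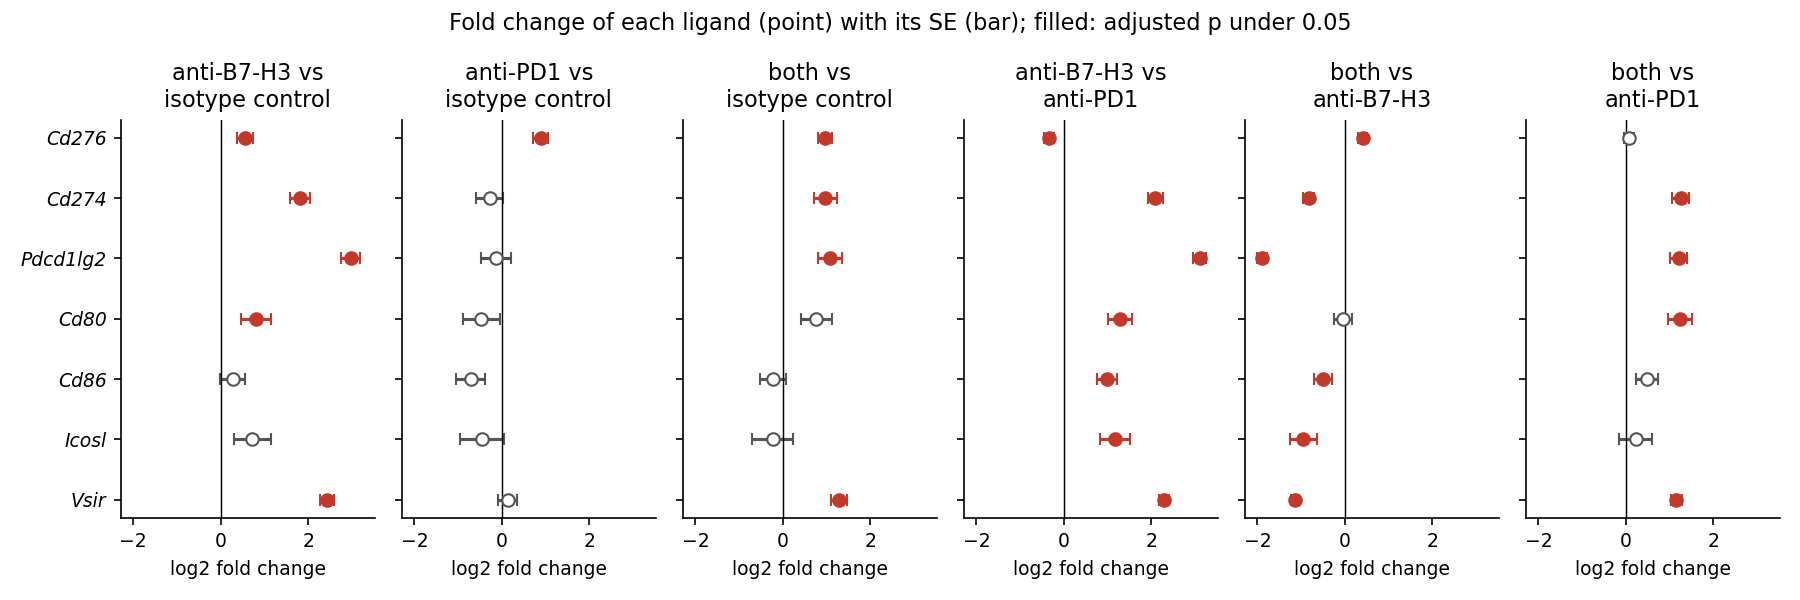
Log2 fold change (horizontal axes, in log2 units) of each ligand in 6 comparisons, with bars for the SE; filled points have an edgeR adjusted p under 0.05. After anti-B7-H3 against anti-PD1 Cd276 stands left of 0 at -0.33 and the other 6 members stand right of it, up to 3.10 for Pdcd1lg2.

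The effect of both antibodies was set against the summed log2 effects of either antibody alone. In this interaction 0 members were higher and 2 lower, beside 36.4% of all genes called. Pdcd1lg2 was 1 of them, at -1.77 ± 0.338 (adjusted p = 1.72e-05). The other was Vsir, at -1.28 ± 0.229 (adjusted p = 5.12e-06), or -0.80 with an effective-length offset (adjusted p = 0.203). Cd274 was at -0.55, with an approximate 95% interval from -1.20 to 0.10, and Cd276 at -0.48 ± 0.210 (adjusted p = 0.0639). The Cd276 value was called in 7 of 22 alternatives, among them 1 library left out of each of the 4 groups, and ranged from -1.22 to -0.25 over all of them. This contrast uses the control libraries, in which 16.5 of 25 Pdcd1lg2 reads and 20.7 of 59 Vsir reads were expected from background.

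The make-up of the ligand reads differed between groups. Cd276 took 51.5%, 49.4% and 48.8% of the summed reads of the 7 genes in the anti-PD1 libraries, 33.1%, 35.3% and 31.95% in the combination libraries and 14.3%, 14.9% and 15.2% in the anti-B7-H3 libraries. These 3 groups did not overlap. Vsir led in anti-B7-H3 libraries with 37.3% ± 0.904 and took 28.6% ± 1.25 in combination libraries. Pdcd1lg2 took 23.1% ± 0.717 after anti-B7-H3, 10.5% ± 0.694 after the combination and 7.01% ± 1.02 in anti-PD1 libraries, while the Cd274 share was 13.2% ± 0.300 after anti-B7-H3 and 12.6% ± 0.674 after the combination. Control shares, such as 43.0%, 23.7% and 25.3% for Cd276, rest on 76 to 107 ligand reads per library.

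**Figure D3:**
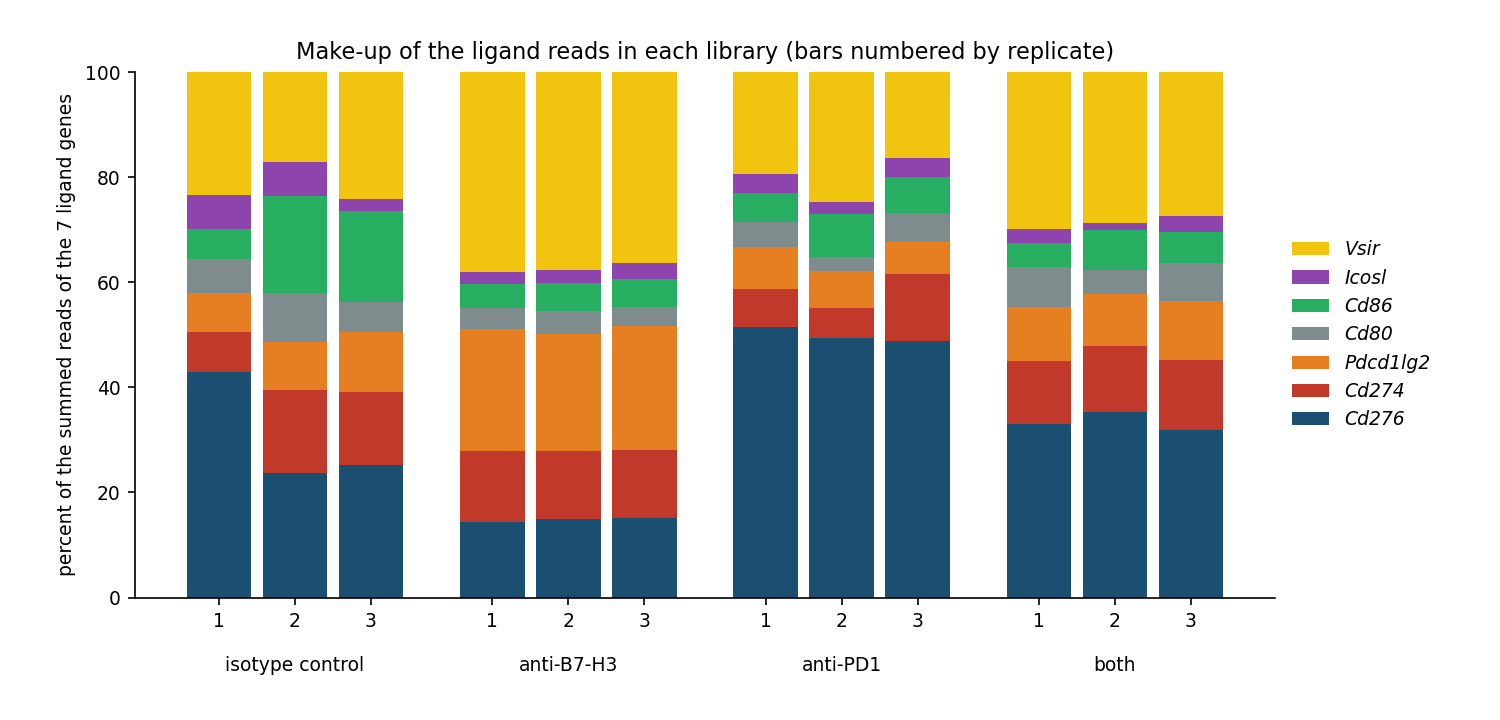
Percent of the summed reads of the 7 ligand genes (vertical axis) that each gene took in each of the 12 libraries, 1 bar per library. The Cd276 segment shrinks from 48.8% to 51.5% of the anti-PD1 bars to 14.3% to 15.2% after anti-B7-H3, where the Pdcd1lg2 and Vsir segments are widest.

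Levels of different genes were compared per kilobase of effective length. In anti-B7-H3 libraries the order of CPM per kilobase was Vsir (51.8 ± 3.61), Pdcd1lg2 (38.5 ± 1.49), Cd276 (26.4 ± 6.17), Cd274 (18.1 ± 0.154), Cd86 (6.39 ± 0.701), Cd80 (5.34 ± 0.802) and Icosl (3.30 ± 0.551). Libraries of Cd86 and Cd80 overlapped in that order and the other neighbours did not. Cd276 came first after anti-PD1 (27.6 ± 2.32) and combination (32.4 ± 2.88), ahead of Vsir (10.7 ± 3.28 and 22.8 ± 1.46). Pdcd1lg2 and Cd274 overlapped in both of these groups. In control Vsir and Cd276 overlapped at the top (15.6 ± 7.28 and 13.2 ± 5.03), and per kilobase of coding length Cd276 (10.4 ± 4.0) came before Vsir (7.43 ± 1.59). Icosl was last in every group.

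Effective lengths depend on how reads were divided among transcripts. Cd274, Pdcd1lg2 and Cd86 have 1 listed transcript each. Of the Cd276 reads 93.8% went to Cd276-202 and 6.05% to the short Cd276-204 of 285 bases, whose share was 9.49% after anti-B7-H3, 6.55% after the combination and 2.18% after anti-PD1. Of the Vsir reads 81.2% went to Vsir-201, with 81.1% after anti-B7-H3, 79.9% after anti-PD1 and 89.1% after the combination. In control, with 59 Vsir reads, Vsir-201 took 13.7% and the short Vsir-207 of 487 bases took 36.2%. Vsir-202 was given 49.4, 0 and 104.6 reads in the 3 anti-B7-H3 libraries, so the division varied between groups and among libraries of 1 group.

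Myeloid cells are a known source of PD-L1, PD-L2 and VISTA, and macrophage markers moved with these members. The 12 fixed macrophage markers, among them Mrc1, C1qa and Csf1r, summed to 339.4 to 361.1 CPM in control, 456.7 to 477.4 after anti-PD1, 1347 to 1351 after the combination and 2695 to 2716 in anti-B7-H3 libraries, with no marker at 0. All 12 passed the test as higher after anti-B7-H3 than after anti-PD1, beside 30.4% of all tested genes higher. All 12 were also higher after the combination than after anti-PD1, beside 23.1% of all tested genes. Other myeloid lists were mixed in these 2 comparisons. Dendritic cell markers gave 5 higher and 1 lower of 8 tested, then 2 higher and 2 lower. Of 2 tested neutrophil markers, 1 was higher in the first and 1 lower in the second. Lists outside the myeloid cells moved in the same direction. Of 8 T cell markers, 7 were higher in the first and 5 in the second, with 0 lower in either. Of 8 fibroblast markers, 8 were higher in the first and 3 in the second, again with 0 lower. Fibroblast markers summed to 826.8 to 917.0 CPM in control and 2327 to 2465 after anti-PD1. They summed to 2331 to 2375 CPM after the combination and 3648 to 3695 after anti-B7-H3. The part of any of these lists in the ligand differences was not tested.

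Per 1000 macrophage marker reads the order of the treated groups changed. Background was not subtracted from these ratios. Of the control reads, background was expected to give 19.4 of 32 for Cd274, 16.5 of 25 for Pdcd1lg2 and 20.7 of 59 for Vsir. For the markers it was 502.2 of 2928, a smaller share, so no difference from control is read from these ratios. Cd274 stood at 4.97, 4.90 and 4.90 reads after anti-B7-H3, 5.43, 5.57 and 5.65 after the combination and 6.51, 4.67 and 8.83 in anti-PD1 libraries. On this scale anti-B7-H3 libraries were below combination libraries and within the anti-PD1 range. Control libraries gave 7.29, 13.98 and 12.3 for Cd274. Pdcd1lg2 stood at 8.64 ± 0.315 after anti-B7-H3, above the combination (4.63 ± 0.207) and the anti-PD1 libraries (5.70 ± 1.56) without overlap. Its control value, without background subtracted, was 8.58 ± 1.54. Vsir ranged from 13.8 to 14.1 after anti-B7-H3, from 11.7 to 13.6 in combination libraries, from 11.3 to 20.1 after anti-PD1 and from 15.1 to 22.8 in control. Among the treated groups Cd276 was lowest after anti-B7-H3 at 5.54 ± 0.246, with 14.8 ± 1.04 after the combination and 40.1 ± 6.46 after anti-PD1. Control stood at 28.5 ± 11.6.

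**Figure D4:**
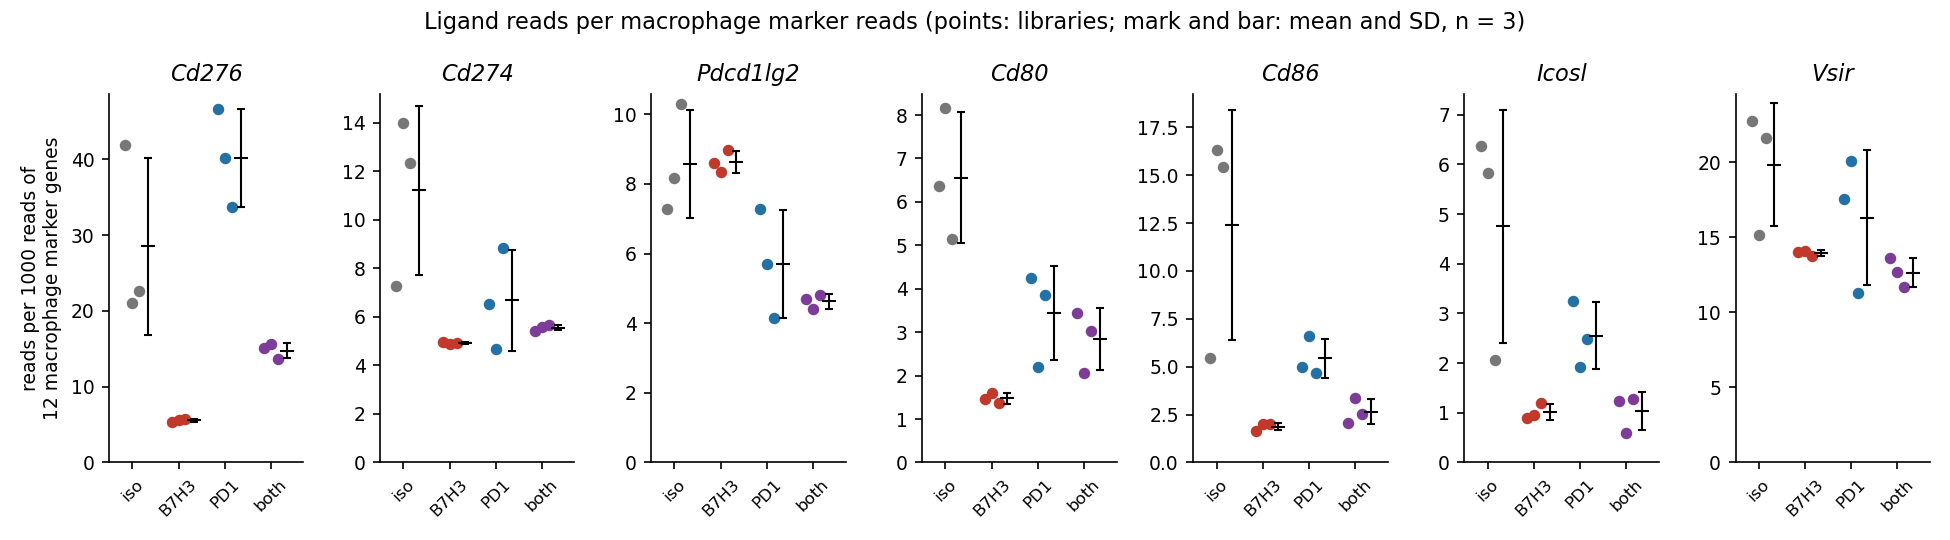
Reads of each ligand per 1000 reads of the 12 macrophage marker genes (vertical axes, each from 0) by group (iso, control; both, the combination); points are libraries, bars the mean and SD (n = 3). Cd276 falls from 40.1 after anti-PD1 to 5.54 after anti-B7-H3, while Cd274 after anti-B7-H3 (4.90 to 4.97) lies within the anti-PD1 range and Pdcd1lg2 after anti-B7-H3 (8.34 to 8.97) lies above the anti-PD1 and combination libraries.

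Receptors for the ligands had few reads. Pdcd1, which encodes PD1, summed to 7 reads in control and 9 after anti-PD1, where background alone would give 19.3 and 13.8, to 51 after anti-B7-H3 and to 36 after the combination. Pdcd1 was higher after anti-B7-H3 than after anti-PD1 by 1.80 ± 0.512 on the log2 scale, from a level at background. Ctla4, the inhibitory receptor for CD80 and CD86, had 8, 70, 18 and 25 reads in control, anti-B7-H3, anti-PD1 and combination, and Cd28 had 7, 28, 17 and 25. Background alone would give Ctla4 14.9 in control and 10.7 after anti-PD1, and Cd28 14.6 and 10.5. Selplg, which encodes PSGL-1, a partner of VISTA, was the most abundant after anti-B7-H3 with 1147 reads, and was higher there than after anti-PD1 by 2.38 and lower after the combination than after anti-B7-H3 (-1.22). Rgmb, a partner of PD-L2, went the other way, with -1.03 after anti-B7-H3 against anti-PD1 and 0.52 after the combination against anti-B7-H3, and Igsf11, another partner of VISTA, gave -1.08 and 0.97. Of the 7 receptor and partner genes, 4 were higher and 2 lower after anti-B7-H3 than after anti-PD1, and 2 were higher and 2 lower after the combination than after anti-B7-H3, beside 62.0% and 39.0% of all tested genes called in these comparisons. T cell markers summed to 158 reads in control against 153.8 from background, 130 after anti-PD1 against 110.1, 967 after anti-B7-H3 and 360 after the combination.

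A list of genes of interferon gamma signalling and of Cd274 regulation was counted in the same comparisons. Of 14 tested among 15, 12 were higher and 0 lower after anti-B7-H3 than after anti-PD1, 12 higher and 0 lower after the combination than after anti-PD1, and 0 higher and 11 lower after the combination than after anti-B7-H3. All tested genes gave 30.4% higher, 23.1% higher and 19.1% lower in these directions. After anti-PD1 against control, where Cd274 did not pass the test, 8 of the list were higher and 1 lower, beside 38.3% of all genes called. Irf1, a transcription factor of the interferon response, rose by 1.95 and 1.03 in the first 2 of these, stood at -0.93 in the third and was 1.13 higher after anti-PD1 than in control. The receptor chain gene Ifngr2 gave 1.27, 0.48 and -0.79. Cmtm6, whose protein keeps PD-L1 at the cell surface, gave 1.18, 0.47 and -0.71. The remaining gene, Ifng itself, did not pass the filter.

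Co-stimulators of the TNF family were tested for 4 of 7 genes, and 3 were higher after anti-B7-H3 than after anti-PD1: Cd40 by 2.10, Tnfrsf14 by 1.92 and Tnfsf9 by 0.84. Of all tested genes 30.4% were higher there. The same comparison gave 8 of 9 genes of CD28 and PD1 signalling higher, among them Lck, a kinase of the T cell receptor, by 2.09, and 0 lower. Combination against anti-B7-H3 gave 7 of these 9 lower and 0 higher, beside 19.1% of all genes lower, with Zap70, a kinase downstream of the T cell receptor, at -1.37. Other T cell inhibitory receptors were higher in 4 of 5 tested after anti-B7-H3 against anti-PD1, with Cd200r1 at 2.24, Tigit at 2.03 and Havcr2, which encodes TIM-3, at 0.86. After anti-PD1 Tigit was at background, with 11 reads where 11.5 were expected. Cd200r1 had 29 there with 15.6 expected, Havcr2 49 with 13.5 and Lck 43 with 24.9. None of 6 further B7 and butyrophilin family genes passed the filter: Vtcn1 (B7-H4) had 0 reads after anti-B7-H3 and 2 after the combination, and Vsig4 2 and 17.

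Across the 12 libraries, log2 CPM of Pdcd1lg2 and Vsir gave a Pearson r of 0.97, Cd274 and Pdcd1lg2 0.91, and Cd276 with the other members -0.51 to 0.32. These values describe 4 groups of 3 libraries and mostly follow the group means. Among 8222 genes of at least 5 CPM, the 3 most like Cd276 were Hnrnpu (0.97), Slc16a1 (0.96) and Phb2 (0.96). Those most like Cd274 were Iah1 (0.98), Cytip (0.97) and Acap1 (0.97). Pdcd1lg2 was followed most closely by Col14a1 (0.99), a collagen of connective tissue, Cilp (0.99) and Cd68 (0.99), a macrophage marker. Among those for Vsir were Nfam1 and Arhgdib, both at 0.99. The closest genes were Tnfrsf23 (0.96) for Cd80, Rcsd1 (0.92) for Cd86 and Rpl7l1 (0.90) for Icosl.

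Protein-coding genes within 200 kilobases did not all move as the ligands did. Beside Cd274 and Pdcd1lg2, Jak2, a kinase of the interferon receptors, was higher after anti-B7-H3 than in control by 1.15 ± 0.0876 and Ric1 by 0.26 ± 0.0991, against 1.80 and 2.97 for the ligands. Plgrkt, which ends 65 bases before Cd274 begins in the annotation and overlaps the Cd274 window printed above, was higher by 0.82 ± 0.307, and Ermp1, at -0.24 ± 0.133, did not pass the test. Next to Cd276, Nptn was higher after anti-B7-H3 than in control by 0.72 ± 0.102. Psap, on the near side of Vsir, was higher by 2.15 ± 0.0545, while Cdh23, whose span holds Vsir, gave -2.37 ± 0.144. These neighbour values had no background subtracted, and the background expected for Cdh23 is not given here. The lower Cdh23 value against control therefore cannot be told from a loss of background reads. Between combination and anti-B7-H3 libraries, whose background rates were lower than in control, Cdh23 gave 1.26 ± 0.126 and Vsir -1.15. Where the counting did not use strand, reads of overlapping genes could not be told apart.

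The tumours are labelled as melanoma. Of 7 melanocyte markers, Tyrp1 and Dct were at 0 in all 3 anti-B7-H3 libraries, where background alone would give 0.449 and 0.432 reads. Their reads were also under background in control (18 of 35.9 and 27 of 34.5 expected) and after anti-PD1 (21 of 25.7 and 18 of 24.7), so no difference is read from these 2 genes. The 7 markers summed to 25.5 to 28.8 CPM after anti-B7-H3, 44.4 to 46.8 after the combination, 83.1 to 86.8 after anti-PD1 and 90.6 to 106.7 in control. Sox10 gave the largest part of each sum, with means of 13.9, 33.0, 64.2 and 66.6 CPM in that order. Mitf, at 12.4, 9.06, 8.44 and 10.9 CPM, was highest after anti-B7-H3. With background subtracted the 7 markers summed to 64.6 to 82.0 CPM in control and 76.2 to 80.8 after anti-PD1. These 2 groups then overlapped, so no difference between them is read from the sums. Of 4 markers tested, 1 was higher and 3 lower after anti-B7-H3 than after anti-PD1, beside 30.4% and 31.6% of all tested genes. Keratinocyte markers summed to 1.04 to 1.42 CPM after anti-B7-H3 with Krt5, Krt14 and Krt1 at 0, beside 43, 58 and 66 reads in control, where 38.7, 32.3 and 42.5 were expected from background. Skeletal muscle markers summed to 81.2 to 86.4 CPM after the combination against 0.225 to 0.580 after anti-B7-H3 and 16.2 to 21.7 after anti-PD1. Their part in the ligand differences was not tested. Of the 29 calls over 7 members and 7 contrasts, 21 held in every alternative tried, among them all calls of Cd274 and Pdcd1lg2. Of the 20 results not called, 18 were called or changed sign in at least 1 alternative.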

How the data were processed

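Per the labels' protocols, RNA with an integrity number of at least 7.0 and a minimum amount of 500 ng had its ribosomal RNA removed before TruSeq total RNA library construction. The submitters' processing notes name FastQC 0.11.8 and the genome build GRCm38, and the program that assigned reads to transcripts, and its strand setting, are not given in the sources used here. The authors deposited, per the file headers, an estimated count, a TPM value, a length and an effective length for each of 58083 transcripts. The estimated counts were tested here, and the deposited TPM values were not used. Most lengths (87.3%) are multiples of 3, so they are coding lengths. GENCODE M21 identifiers matched 57473 transcripts, and the other 610 were left out. Counts were summed per gene and rounded for the test.

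Differences were tested by the quasi-likelihood F test of edgeR 4.0.16, run in R 4.3.3 (robust spread, TMM, filtering by expression, 4 group means, all 12 libraries). The 7 contrasts were the 6 pairwise differences and the interaction. Benjamini-Hochberg adjustment ran over all 13478 tested genes within each contrast, with calls at an adjusted p under 0.05. An SE is the log2 fold change divided by the square root of F, and approximate 95% intervals follow from it. The expected background used 1489 chemoreceptor genes. The test was checked on simulated data.

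The members, the 17 other gene lists and the tests were chosen with earlier results of these data known. Named genes are the 7 ligands, called members of the lists by size of change, for each ligand the genes most alike in log2 CPM (prior count 2), and protein-coding genes within 200 kilobases; part of those the rule gives are named, and some are not reported here. Receptor and regulator genes with a stated role, Ifng, Vtcn1 and Vsig4 were named after their values were seen. Replicate libraries differed only a little more than counting noise after anti-B7-H3 (median chi-squares 0.547 to 0.5605, against 0.455 by chance) and the combination (0.549 to 0.577). The values were 0.624 to 0.654 after anti-PD1 and 0.706 to 1.21 in control. Whether this spread is that between mice cannot be told, since the labels do not say if each library is a mouse of its own. Depth limits the scarce members. Alternatives were DESeq2 1.42.0 size factors and its Wald test, no filter, only the groups compared, a replicate block, background subtraction, genes above 3 times background only, genes of over 1% of a library left out, an effective-length offset, a spread that is not robust and each library left out, with 2 more chosen after seeing the data.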

Additional observations from a re-analysis of the deposited data

Results flagged for a closer look

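For 2 members the effect of adding one antibody differed with the other antibody by a test of the difference itself, the interaction in the edgeR fit (n = 3 libraries in each of 4 groups), beside 36.4% of all tested genes called. Pdcd1lg2 gave -1.77 on the log2 scale (adjusted p = 1.72e-05): anti-B7-H3 alone stood 2.97 above control, anti-PD1 alone -0.13, and both together 1.07. Vsir gave -1.28 (adjusted p = 5.12e-06), from 2.43, 0.13 and 1.28 in the same order. The interaction of Pdcd1lg2 was called in every alternative that could give it, and that of Vsir in all but the effective-length offset (-0.80, adjusted p = 0.203). The summed macrophage markers had a mean of 2704 CPM after anti-B7-H3, 1349 after the combination, 469.1 after anti-PD1 and 348.0 in control libraries, and their part in these values was not tested.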

How the results depend on the processing

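Of 49 member results, 21 of 29 calls held in each of the alternatives that gave a value, 18 of the 20 not called were called or changed sign in at least 1, and only the groups compared gives no interaction. Replicate numbers did not pair the libraries (correlation of same-numbered deviations -0.15 to 0.13), and the fit with a replicate block left the ligand calls at 5, 1, 4, 6, 4, 7 and 2 for the control comparisons of anti-B7-H3, anti-PD1 and the combination, the combination against either antibody (anti-B7-H3 first), anti-B7-H3 against anti-PD1 and the interaction. Depth limits the control values, where Cd86 (1.69 times background), Cd274 (1.65) and Pdcd1lg2 (1.51) lie near background and Cd80 and Icosl under it. After anti-PD1, Icosl (1.76 times background) and Cd80 (2.66) also lie near it. The cause of the changes below was not tested.

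Without a filter on low counts 16711, 10021, 15865, 11406, 14594 and 7352 genes were called for the control comparisons of anti-B7-H3, anti-PD1 and the combination, for combination against anti-PD1, anti-B7-H3 against anti-PD1 and the interaction, against 8641, 5164, 7727, 6271, 8356 and 4900. With reads outside satellite-like genes as library size, chosen after seeing the data, the first 3 and the interaction gave 13231, 10570, 13206 and 9321. Anti-PD1 against control gave 3069 with background subtracted and 8008 with dominant genes left out. The effective-length offset gave 2373 for combination against anti-B7-H3 (5254 otherwise), 3511 for combination against anti-PD1 and 2870 for the interaction. Of the genes called against control 48.0%, 45.6% and 48.5% were higher in anti-B7-H3, anti-PD1 and combination libraries, compared with 66.0%, 75.8% and 68.4% on that added scaling and 60.5%, 62.0% and 62.3% with background subtracted. Without a filter the share was 35.3% in anti-B7-H3 and 36.1% in combination against control, 38.8% (49.8% otherwise) in combination against anti-PD1 and 35.5% (49.0%) in anti-B7-H3 against anti-PD1. In the interaction it was 52.5%, 42.0% with background subtracted and 24.3% on the added scaling.

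Ligands called in anti-B7-H3 against control numbered 3 to 5 when 1 library was left out (3 without control replicate 3), and in anti-PD1 against control 1 to 2 (2 without control replicate 1), or 2 with background subtracted and 2 with reads outside satellite-like genes as library size. The effective-length offset gave 3 in combination against anti-B7-H3 and 1 in the interaction, where the scaling by reads outside satellite-like genes gave 4.

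Values of single members that changed sign were these, and except for Cd276 in anti-B7-H3 against anti-PD1 none had been called. On the added scaling, anti-PD1 against control gave 0.49 for Cd274, 0.63 for Pdcd1lg2, 0.30 for Cd80, 0.061 for Cd86 and 0.31 for Icosl, combination against control gave 0.81 for Cd86 and 0.78 for Icosl, and the interaction gave -0.31 for Cd80 and -0.53 for Cd86. With background subtracted, anti-PD1 against control gave 0.13 for Cd274, 0.46 for Pdcd1lg2, 6.26 for Cd80 and 5.39 for Icosl, combination against control gave 0.14 for Cd86 and 6.43 for Icosl, combination against anti-PD1 gave -0.11 for Cd276, and the interaction gave -6.31 for Cd80 and -0.020 for Cd86; the values over 5 arise where subtraction leaves almost no control reads. Without a filter Pdcd1lg2 gave 0.029 in anti-PD1, and Cd86 0.076 and Icosl 0.069 in combination, each against control. With dominant genes left out Pdcd1lg2 gave 0.015 in anti-PD1 and Cd86 0.0050 in combination. The effective-length offset gave -0.42 for Vsir in anti-PD1 against control and 0.036 for Cd276 in anti-B7-H3 against anti-PD1. Leaving out 1 library gave ranges of -0.17 to 0.50 for Cd86 in anti-B7-H3, -0.37 to 0.039 for Pdcd1lg2 and -0.029 to 0.30 for Vsir in anti-PD1, -0.67 to 0.0058 for Cd86 and -0.58 to 0.13 for Icosl in combination, all against control, -0.20 to 0.15 for Cd80 in combination against anti-B7-H3, -0.038 to 0.19 for Cd276 in combination against anti-PD1 and -0.026 to 0.64 for Cd86 in the interaction.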
